A study of Mus musculus with 12 samples.

Results

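Hair keratins and keratin-associated proteins (KAPs) build the hair shaft and the sheath that guides it out of the follicle. The group described here holds every gene of the deposited count table whose symbol starts with Krtap and a number, plus a fixed list of hair follicle keratins, 80 of 49492 genes in all. It comprises 23 keratins and 57 KAPs, and Krt85 was not analysed here. The rule reads gene symbols and no measured value, but it was set with earlier results of these data known. Libraries came from mouse skin, as m6A RNA immunoprecipitation (IP) libraries and matching input libraries of 3 UV-treated and 3 control samples. N6-methyladenosine (m6A) is a modified base of messenger RNA, and IP over input measures how strongly a transcript is pulled down by an antibody against it. UV and Control are the only treatments the labels give, and the strain, sex and age of the mice, the UV source, dose and schedule, the skin site and the antibody are unstated in the sources used here. Since the labels do not say that the samples are separate animals, p-values measure the spread between these samples, which may be technical.

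Each hair is made by matrix cells at the base of a growing follicle. Matrix cells give rise to the inner root sheath, whose keratins are Krt25 to Krt28 (type I, acidic) and Krt71 to Krt74 (type II, basic), and to the shaft, whose keratins are the type I genes Krt31 to Krt40 of the list and the type II genes Krt81 to Krt86. Type I and type II keratins pair to form filaments, and Krt75 marks the companion layer between the inner and outer root sheaths. KAPs are small proteins that embed and crosslink the shaft filaments late in shaft formation. They are classed by composition as high sulfur, ultra-high sulfur (rich in cysteine) or high glycine-tyrosine, and here the class follows the family number. These genes are expressed mainly in the growth phase (anagen) of the hair cycle.

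Promoters are shown because the members vary together across samples, and they show what many of these genes share upstream. RefSeq promoters on GRCm38.p6 matched 67 of the 80 members, each a window of 300 bases around the annotated start. A promoter is printed for each of 5 roles, 5′ to 3′ on the gene's own strand (all 5 genes lie on the minus strand), with capitals for the letters TATAAA and for LEF1/TCF letters on either strand. Krt71 (inner root sheath) spans chr15:101743048-101743347, Krt31 (shaft, type I) chr11:100050502-100050801, Krtap3-1 (high sulfur) chr11:99566581-99566880, Krtap17-1 (ultra-high sulfur) chr11:99993945-99994244 and Krtap6-5 (high glycine-tyrosine) chr16:89047850-89048149.
Krt71: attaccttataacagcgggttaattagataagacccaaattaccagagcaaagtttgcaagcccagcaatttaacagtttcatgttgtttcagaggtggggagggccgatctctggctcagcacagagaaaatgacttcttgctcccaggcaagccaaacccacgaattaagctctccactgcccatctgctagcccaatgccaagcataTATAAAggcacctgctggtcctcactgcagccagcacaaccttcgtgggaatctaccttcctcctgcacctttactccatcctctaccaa
Krt31: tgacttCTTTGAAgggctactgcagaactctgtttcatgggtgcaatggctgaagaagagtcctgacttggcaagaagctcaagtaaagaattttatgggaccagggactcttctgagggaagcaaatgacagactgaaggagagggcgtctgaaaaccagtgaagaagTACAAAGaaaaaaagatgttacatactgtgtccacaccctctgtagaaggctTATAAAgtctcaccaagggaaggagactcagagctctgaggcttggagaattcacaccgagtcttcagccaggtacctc
Krtap3-1: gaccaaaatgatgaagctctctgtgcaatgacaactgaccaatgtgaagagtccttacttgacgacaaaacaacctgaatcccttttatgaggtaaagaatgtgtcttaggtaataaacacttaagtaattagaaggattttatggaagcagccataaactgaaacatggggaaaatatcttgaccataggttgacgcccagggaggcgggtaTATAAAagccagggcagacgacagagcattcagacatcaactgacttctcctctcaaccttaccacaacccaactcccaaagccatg
Krtap17-1: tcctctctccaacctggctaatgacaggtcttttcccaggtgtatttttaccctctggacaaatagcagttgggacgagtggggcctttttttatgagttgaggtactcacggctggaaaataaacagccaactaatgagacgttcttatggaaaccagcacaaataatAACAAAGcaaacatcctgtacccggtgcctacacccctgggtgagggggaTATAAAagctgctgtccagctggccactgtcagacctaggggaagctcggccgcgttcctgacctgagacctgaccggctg
Krtap6-5: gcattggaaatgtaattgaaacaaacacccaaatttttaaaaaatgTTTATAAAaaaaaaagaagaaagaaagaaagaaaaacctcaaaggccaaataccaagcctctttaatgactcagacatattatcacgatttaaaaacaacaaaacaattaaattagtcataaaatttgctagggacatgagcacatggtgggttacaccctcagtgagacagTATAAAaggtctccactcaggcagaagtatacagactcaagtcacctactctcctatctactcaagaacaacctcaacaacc
TATAAA stands at position −40 in Krt71, −29 in Krt31, −37 in Krtap3-1, −31 in Krtap17-1 and −32 in Krtap6-5, counted to the start, with a further copy at −202 in Krtap6-5 that overlaps a reverse-strand copy at −204.

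TATAAA occurred on either strand in 55 of the 67 matched promoters (82.1%), against 13.6% of all 32544 promoters of the same length in the RefSeq table. On the coding strand 40 to 20 bases before the start, where a TATA box lies, it occurred in 40 of 67 (59.7%), against 1.99% of all promoters. The LEF1/TCF letters searched, on both strands, were CTTTG followed by AA, AT, TT or TA, and LEF1 is a Wnt pathway transcription factor of the hair matrix. They occurred in 25 of 67 member promoters (37.3%), in 5 of 7 of shaft type I keratins (71.4%) in 9 of 15 of high sulfur KAPs (60.0%) and in 2 of 4 of sheath type I keratins, against 16.9% of all promoters. In high glycine-tyrosine KAPs they occurred in 3 of 14 (21.4%), in ultra-high sulfur KAPs in 3 of 16 (18.8%), in KAPs of no assigned class in 3 of 5, and in shaft type II keratins, sheath type II keratins and Krt75 in 0 of 2, 0 of 3 and 0 of 1. The letters GACGC, the core recognised by the hair factor FOXN1, occurred in 5 of 67 (7.46%), against 27.3% of all promoters, which are richer in CpG (a median of 7 CpG per promoter, against 3 in members). Such matches describe letters in a window and are not binding sites.

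Members lie in a few clusters: 36 on chromosome 11 (99315516 to 100105626, GRCm38.p6), 25 on chromosome 16 (88610709 to 89571183), 10 on chromosome 15 (101459061 to 101802343), 5 on chromosome 7, and 2 each on chromosomes 1 and 10. In a comparison per kilobase of transcript over the 6 input libraries, inner root sheath keratins were the most abundant. Krt71 averaged 980 CPM (read counts scaled to library size) per kilobase, Krt25 725 and Krt27 587. Shaft keratins followed with 131 CPM per kilobase for Krt81, 122 for Krt83 and 103 for Krt31, and Krt75 had 30.8. Among KAPs, the high glycine-tyrosine gene Krtap6-5 had 99.1 CPM per kilobase, the high sulfur gene Krtap3-1 33.9 and the ultra-high sulfur gene Krtap17-1 19.5. At the low end, Krtap13 had 0 counts in all 6 input libraries. A minimum-count filter left 73 members for the expression test, without Krtap5-1, Krtap9-5, Krtap13, Krtap20-2, Krtap27-1, Krtap29-1 and Krtap31-2. Several families are near-identical copies, so reads may be split between neighbours in a way the files do not show.

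Libraries held 24126662 to 92163619 reads in genes. Members took 0.3145% to 0.7986% of the reads of UV inputs and 0.5714% to 1.259% of those of control inputs. Summed over all 80 members, the UV inputs 1 to 3 had 3088, 7346 and 7664 CPM, and the control inputs 1 to 3 had 8267, 10812 and 5484 CPM. UV 1 and Control 3 thus held fewer hair transcripts than the other samples of their own condition, and the sums of the conditions overlapped. Of 73 tested members, 73 had their lowest UV value in UV 1 (34.1% of all tested genes) and 73 their lowest control value in Control 3 (32.8% of all tested genes). Over replicates, the highest value of a member was a median of 3.43 times the lowest in UV inputs and 2.54 times in control inputs, against 1.24 and 1.33 times for all tested genes. In bulk skin, fewer follicle cells of a type and less RNA per cell cannot be told apart.

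**Figure D1:**
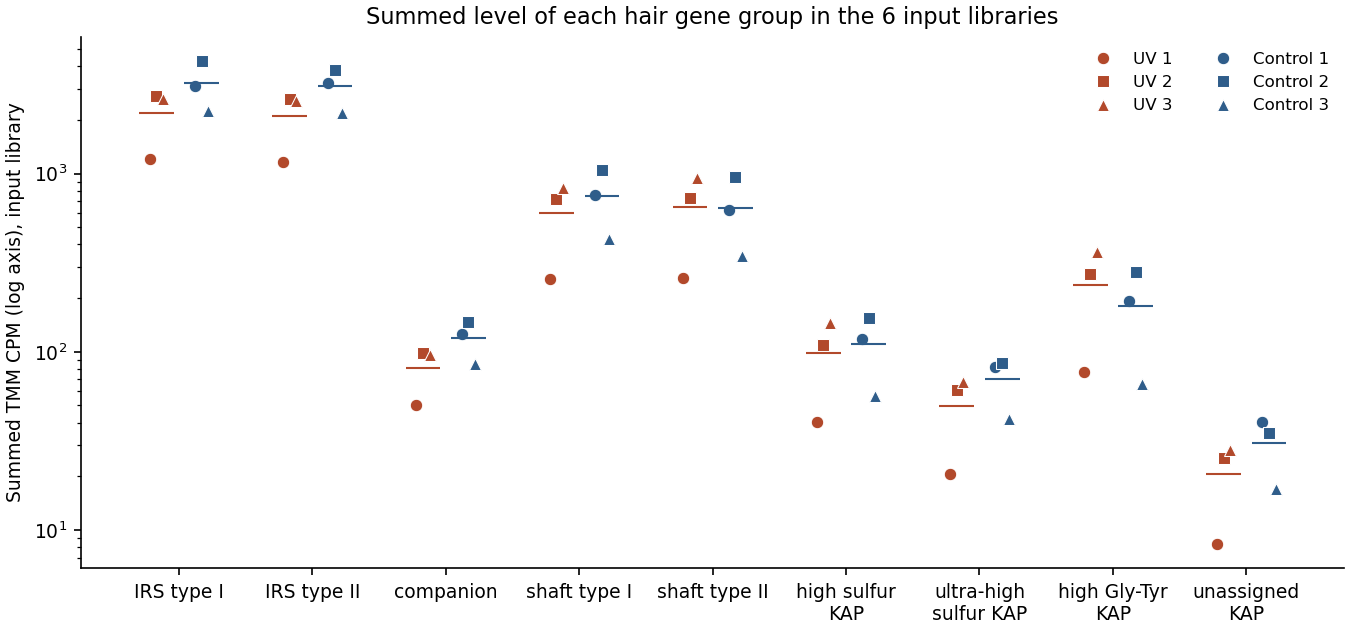
Summed CPM in the input libraries by role of the members, on a log axis, with 1 point per sample, a line at the mean, and UV left of control. UV 1 and Control 3 are the lowest points of their conditions, and high glycine-tyrosine KAPs, for example, sum to 77.4, 272 and 364 CPM in UV 1 to 3 and to 192, 281 and 66.0 CPM in Control 1 to 3.

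The first comparison asked which members differ in abundance between UV and control skin. Of 73 tested members, 0 were called higher and 0 lower at an adjusted p below 0.05 (edgeR), where 3.02% of all tested genes were called higher and 2.81% lower. At an unadjusted p below 0.05, 2 were higher and 15 lower, against 12% and 13.1% of all genes. The median log2 change was −0.37 over members, against −0.02 over all tested genes. Values of UV and control inputs did not overlap for 1 member that was higher in UV (Krtap31-1) and for 11 that were lower (15.1% of 73), against 16.2% and 15% of all genes. The minimum-count filter kept Krtap31-1 only through its UV inputs, which favoured a higher UV value. The DESeq2 Wald test called 2 members higher and 7 lower, where it called 5.57% and 5.22% of all genes.

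The number called moved with single samples. Without Control 3, 8 members were lower and 0 higher (3.51% and 5.02% of all genes), namely Krt35, Krt40, Krt74, Krtap4-8, Krtap4-9, Krtap5-2, Krtap26-1 and Krtap28-10. Without UV 1, Krt84 was called higher and no member lower (0.405% and 0.473% of all genes). Without both, a setting added after the values had been seen, Krtap19-1 was higher and Krt35, Krt40, Krt74, Krtap28-10 and Krtap28-13 were lower (0.696% and 0.528% of all genes).

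Inner root sheath keratins were lower in UV in value, with no call. Krt71, the most abundant member, which encodes the main type II keratin of the sheath, had 982, 2192 and 2131 CPM in UV inputs 1 to 3, against 2673, 3056 and 1818 CPM in control inputs 1 to 3. Control 3 lay within the UV range. With 3 samples in each condition, the log2 change of Krt71 was −0.52 (adjusted p = 0.334, SE 0.31). Its type I counterpart Krt25 had 665, 1479 and 1365 CPM in UV inputs and 1595, 2325 and 1229 CPM in control inputs (−0.56, SE 0.32, adjusted p = 0.312). For Krt27 the log2 change was −0.53, for Krt26 −0.57, for Krt28 −0.72 and for Krt72 −0.60, and in all 4 the conditions overlapped.

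Krt73 and Krt74 were the sheath keratins whose conditions did not overlap. Krt73, a keratin of the sheath cuticle in human follicles, had 101, 215 and 193 CPM in UV inputs and 308, 400 and 228 CPM in control inputs (−0.88, SE 0.29, adjusted p = 0.106). Krt74, a keratin of Huxley's layer in human follicles, had 3.68, 6.42 and 5.33 CPM in UV inputs and 13.9, 14.0 and 6.91 CPM in control inputs. Its log2 change of −1.17 (SE 0.29) had an adjusted p of 0.0545. Control 3 lay nearest to the UV samples in both genes. Krt75 of the companion layer had 50.2, 98.1 and 95.5 CPM in UV inputs and 126, 147 and 85.9 CPM in control inputs (−0.56, SE 0.27, adjusted p = 0.235).

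Among the 9 shaft type I keratins, 2 values lay above 0 and 7 below, with a median log2 change of −0.39. Krt35, a keratin of the lower shaft where filaments first form, had 32.6, 67.3 and 65.8 CPM in UV inputs against 116, 140 and 79.6 CPM in control inputs (−1.02, SE 0.29, adjusted p = 0.0744), with no overlap. Krt32, a cuticle keratin, had 15.8, 39.7 and 37.1 CPM in UV inputs and 61.9, 89.4 and 36.6 CPM in control inputs (−1.02, SE 0.38, adjusted p = 0.146). Reads of Krt32 and of Krt75 may include those of the antisense genes Gm11571 and Gm44460, which overlap their exons, since use of strand in counting is not given in the sources used here. Log2 changes of 4 cortex keratins were nearer 0: Krt31 −0.39, Krt33a −0.24, Krt33b −0.01 and Krt34 0.16. For Krt34, UV inputs had 57.9, 177 and 216 CPM and control inputs 140, 192 and 71.2 CPM, so the conditions overlapped widely.

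Shaft type II keratins spread in both directions around a median of −0.07. Krt86, a cortex keratin mutated in human monilethrix, had 68.9, 178 and 250 CPM in UV inputs and 122, 184 and 70.1 CPM in control inputs (0.40, SE 0.46, adjusted p = 0.629). Krt81, another cortex keratin, had 95.6 to 347 CPM in UV inputs and 133 to 376 CPM in control inputs (−0.07). Krt83 had 83.7 to 319 CPM in UV inputs and 117 to 352 CPM in control inputs (−0.09). At the ends of the range stood Krt82 and Krt84. Krt82, a keratin of the shaft cuticle, had 7.14, 19.2 and 17.4 CPM in UV inputs and 29.97, 40.7 and 18.4 CPM in control inputs (−1.02, SE 0.38, adjusted p = 0.141). Krt84, known from human tongue papillae more than from hair, had 4.53, 10.01 and 14.4 CPM in UV inputs and 5.16, 5.52 and 3.74 CPM in control inputs (1.02, SE 0.36, adjusted p = 0.129). UV 2 and UV 3 exceeded all control samples in Krt84, and UV 1 did not. These Krt84 values, and all others of its expression given here, rest on the gene counts. Reads in the deposited peaks of Krt84, given below, did not follow them.

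KAP classes differed in the sign of their median. Of 15 tested high glycine-tyrosine KAPs, 12 had values above 0 and 3 below (median log2 change 0.48), and none was called. Krtap6-5, the most abundant of them, had 23.2, 82.02 and 102 CPM in UV inputs against 52.8, 78.1 and 18.2 CPM in control inputs (0.48, SE 0.58, adjusted p = 0.648). Krtap19-5 had 9.33, 31.2 and 48.5 CPM in UV inputs and 17.8, 27.2 and 5.08 CPM in control inputs (0.85, SE 0.64, adjusted p = 0.45). Samples within a condition differed more than the conditions did in both genes. Krtap6-2 (0.63) and Krtap21-1 (0.02) were likewise not called, and the highest value of the class was that of Krtap19-1 (1.48, SE 0.76, adjusted p = 0.262).

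Of 15 tested ultra-high sulfur KAPs, 14 had values below 0 (median −0.69). Krtap17-1, a KAP of the hair cuticle, had 5.14, 14.6 and 14.3 CPM in UV inputs and 23.5, 19.5 and 12.1 CPM in control inputs (−0.69, SE 0.37, adjusted p = 0.288). Krtap4-1 had a log2 change of −0.18 and Krtap4-16 of −0.56, and Krtap9-3 was the member above 0 (0.29). The 16 tested high sulfur KAPs had a median of −0.38, with 4 above and 12 below 0. Krtap3-1 had 9.94, 24.0 and 33.02 CPM in UV inputs and 20.2, 25.5 and 10.2 CPM in control inputs (0.27, SE 0.43, adjusted p = 0.736). Krtap1-5 (0.19), Krtap3-2 (−0.32) and Krtap16-1 (−0.77) were not called.

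Of the 6 KAPs with no assigned class 4 passed the filter, and none was called. Krtap28-10 had 1.81, 3.53 and 3.21 CPM in UV inputs and 10.5, 7.65 and 4.29 CPM in control inputs (−1.38, SE 0.34, adjusted p = 0.0531), and its neighbour Krtap28-13 had 3.92, 10.1 and 10.01 CPM in UV inputs and 20.5, 17.6 and 10.2 CPM in control inputs (−0.999, SE 0.36, adjusted p = 0.134). Every UV value lay below every control value in both genes. Krtap31-1 was the scarcest of the 4, with 8, 37 and 57 counts in UV inputs and 13, 4 and 2 counts in control inputs (2.27, SE 0.67, adjusted p = 0.0803). It passed the filter only through its UV inputs. Its lowest UV value rests on 8 reads and its highest control value on 13. Krtap16-3 had a log2 change of 0.44 (adjusted p = 0.709).

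**Figure D2:**
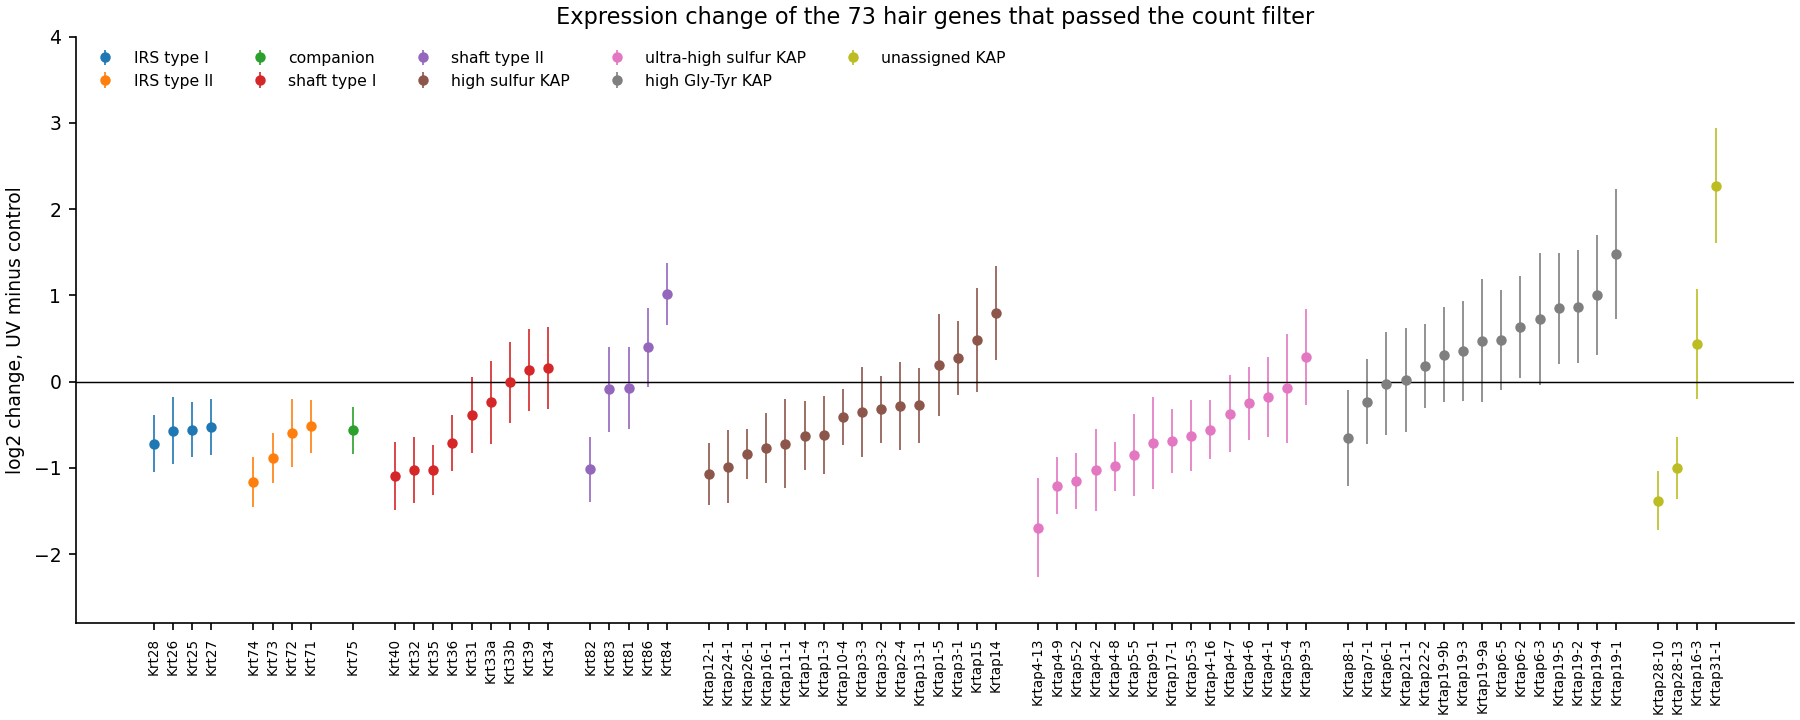
Log2 change of expression (UV over control inputs) of each tested member by role, ordered by size within a role, with bars for the SE (n = 3 per group) and a line at 0. High glycine-tyrosine KAPs lie mostly above 0 (median 0.48) and ultra-high sulfur KAPs mostly below (median −0.69), and no member was called.

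Because the 73 tested members were all lowest in the same sample of each condition, ratios within a sample were also taken. They were chosen after the values had been seen and are given without a test. High glycine-tyrosine KAPs per CPM of ultra-high sulfur KAPs were 3.77, 4.47 and 5.34 in UV inputs 1 to 3, against 2.33, 3.25 and 1.57 in control inputs. All 3 UV ratios exceeded all 3 control ratios. Krt86 per CPM of Krt35, a late over an early shaft keratin, was 2.12, 2.64 and 3.798 in UV inputs and 1.05, 1.31 and 0.881 in control inputs. Krt84 per CPM of Krt82 was 0.634, 0.520 and 0.828 in UV inputs and 0.172, 0.135 and 0.204 in control inputs. Krtap19-1 per CPM of Krtap28-10 was 1.43, 3.35 and 5.38 in UV inputs and 0.577, 0.619 and 0.172 in control inputs. None of these 3 pairs overlapped between the conditions. In each of these ratios the upper part had a log2 change or class median above 0 and the lower part below 0. A gap between the conditions was thus favoured by the choice. The share of other gene pairs with such a gap is not given here.

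Ratios to the inner root sheath keratins overlapped for the groups given here. High glycine-tyrosine KAPs per CPM of inner root sheath keratins were 0.0326, 0.0511 and 0.0702 in UV inputs and 0.0304, 0.0347 and 0.0148 in control inputs. Shaft type II keratins per CPM of sheath keratins were 0.109, 0.137 and 0.183 in UV inputs and 0.0983, 0.118 and 0.0771 in control inputs. UV 1 lay inside the control range in both ratios. Krt75 per CPM of sheath keratins stayed between 0.0184 and 0.0211 in UV inputs and between 0.0181 and 0.0200 in control inputs.

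**Figure D3:**
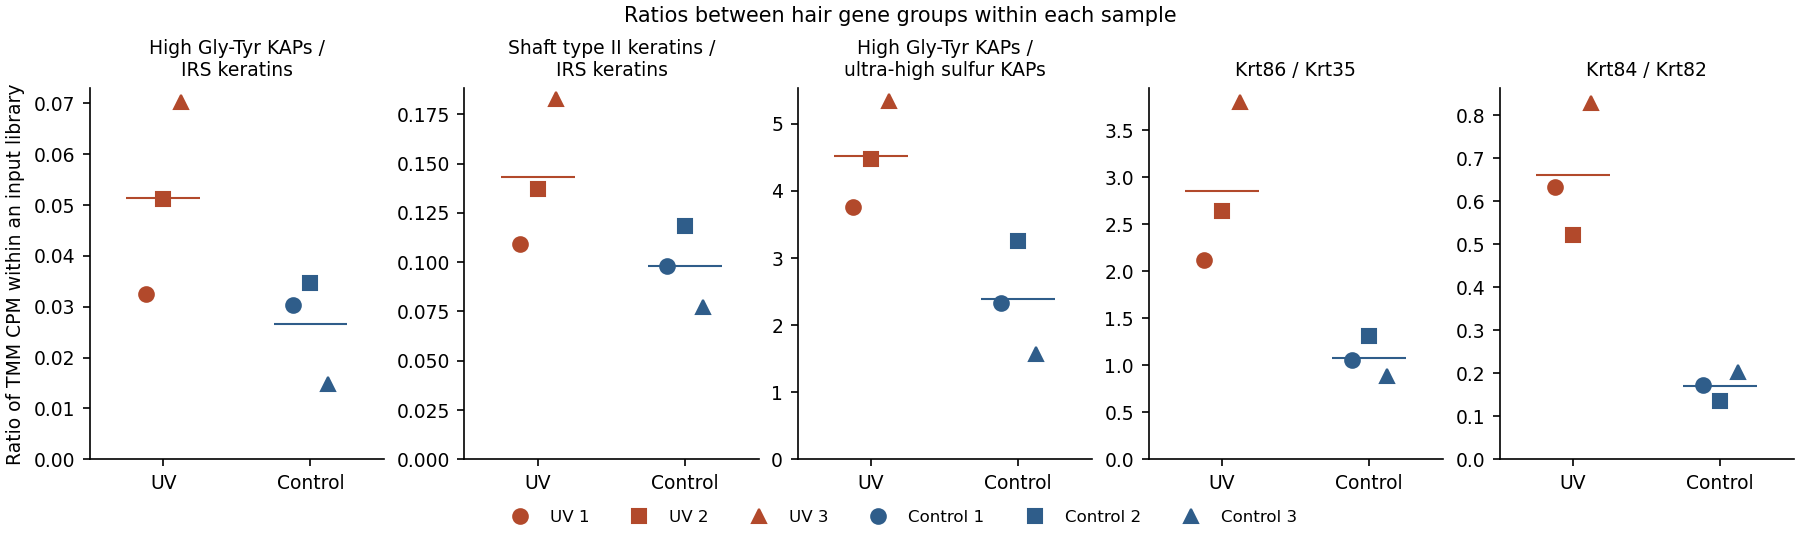
Ratios of summed CPM within each input library on linear axes that start at 0, with 1 point per sample, a line at the mean, and UV left of control. High glycine-tyrosine over ultra-high sulfur KAPs (3.77 to 5.34 in UV, 1.57 to 3.25 in control) and Krt86 over Krt35 (2.12 to 3.798 in UV, 0.881 to 1.31 in control) do not overlap. These ratios were chosen after the values had been seen.

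A fit with the log2 sum of the sheath keratins of each sample as a covariate was added after these values had been seen. It called 23 of the 65 members outside the sheath higher and 1 lower (1.11% and 1.09% of all genes). The covariate sums members that were themselves lower in UV in value. Higher and lower in this fit thus mean at an equal sheath sum and are not differences in abundance. Of the high glycine-tyrosine KAPs 9 of 15 were higher, among them Krtap6-5 (1.61, SE 0.20), Krtap6-2 (1.74, SE 0.25), Krtap19-5 (2.08, SE 0.29) and Krtap19-4 (2.30, SE 0.29). Of the shaft type II keratins 4 of 5 were higher, with 1.53 (SE 0.21) for Krt84, 1.22 (SE 0.16) for Krt86, 0.83 (SE 0.14) for Krt83 and 0.80 (SE 0.14) for Krt81. Shaft type I keratins split: Krt34 (1.02, SE 0.13), Krt33b (0.86, SE 0.13) and Krt39 (0.99, SE 0.15) were higher and Krt35 (−0.51, SE 0.09) was lower. Of the ultra-high sulfur KAPs 1 of 15 (Krtap9-3, 1.28, SE 0.19) was higher, and 4 of 16 high sulfur KAPs were higher.

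The calls moved with single samples, as they did over all genes. Without UV 3 or without Control 3, 0 of the 24 members stayed called, and over all genes 69 and 3 were called, against 268 higher and 262 lower with all samples. Of the 24 members, 23 stayed called without UV 1 or without Control 2, 19 without Control 1 and 18 without UV 2. All 24 kept their sign each time.

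Other genes of the follicle were read from lists, in the same expression test, which called 3.02% of all tested genes higher and 2.81% lower. Of 17 tested hair matrix regulators 3 fell and none rose: Ovol1 (−0.59, adjusted p = 0.0242) and Sox21 (−0.50, adjusted p = 0.0421), transcription factors of keratinocyte and shaft differentiation, and the Wnt ligand gene Wnt10b (−0.97, adjusted p = 0.0409). Summed, these regulators had 271 to 369 CPM in UV inputs and 402 to 578 CPM in control inputs, with no overlap. Hoxc13, which drives hair keratin genes, had a log2 change of −1.16 and missed the threshold (adjusted p = 0.0531). Among 15 other shaft genes 3 fell, namely Msx1 (−1.58, adjusted p = 0.00769), Liph (−0.44, adjusted p = 0.0259) and Selenbp1 (−1.01, adjusted p = 0.0487), with a median of −0.66 for the list.

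Of 12 other sheath genes, Tgm3, which crosslinks sheath and epidermal proteins, rose (1.24, adjusted p = 0.00478) and Gata3, a sheath transcription factor, fell (−0.48, adjusted p = 0.0356). Of 12 stem cell and outer root sheath genes, Lgr6 (−0.86, adjusted p = 0.00353) and Krt15 (−0.72, adjusted p = 0.0361) fell. Summed, this list had 756 to 802 CPM in UV inputs and 854 to 1220 CPM in control inputs, again with no overlap. Krt15 was a large part of each sum, with 405, 376 and 433 CPM in UV inputs and 796, 693 and 505 CPM in control inputs. Besides Krt15, Lgr6 and Cd34 were lower in UV without overlap and Nfatc1 was higher. The other genes of the list overlapped, so the gap of the sum was not shared by most of them. Melanocyte, dermal papilla and proliferation lists held 0 called genes, with medians of −0.32, −0.23 and 0.17. Markers of other tissue moved with the samples too. Interfollicular epidermis genes, with 0 of 12 called, summed to 97106, 63826 and 95221 CPM in UV inputs 1 to 3. In control inputs 1 to 3 they summed to 55910, 28046 and 81677 CPM. UV 1 and Control 3, with the fewest hair transcripts of their conditions, had the highest sums of their conditions. UV 3, with the most hair transcripts of the UV inputs, had a sum close to that of UV 1. Skeletal muscle genes, of which 2 of 12 fell, summed to 2280 to 6487 CPM in UV inputs and 5735 to 13097 CPM in control inputs, and adipocyte genes, of which 4 of 10 rose, to 482 to 551 CPM in UV inputs and 355 to 398 CPM in control inputs. The part of these tissues in the hair values was not tested.

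Abundance in the IP libraries was compared next. Of 73 tested members 1, Krtap9-5, was called higher and 0 lower (1.45% and 1.05% of all genes). At an unadjusted p below 0.05, 3 were higher and 12 lower (9.66% and 9.92% of all genes), and DESeq2 called 1 higher and 2 lower, Krt73 and Krt74 (3.05% and 2.97% of all genes). This ultra-high sulfur KAP gene had 10, 58 and 34 counts in UV IP libraries and 6, 4 and 0 counts in control IP libraries (log2 change 3.06, adjusted p = 0.046). It was scarce in input too, with 4, 10 and 52 counts in UV inputs and 4, 2 and 0 counts in control inputs. Krtap9-5 passed the minimum-count filter only through the UV IP libraries, so a higher UV value was favoured by the filter. Across settings its adjusted p ranged from 0.0012 to 0.152, and it was not called with a replicate block or without UV 1, UV 2, UV 3, Control 1 or Control 2.

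The next question was how strongly each transcript was pulled down relative to the average gene, read as log2 IP over input within each condition. These values centre near 0 over all genes, so they do not show whether a transcript carries m6A. Without a term for which IP belongs to which input, edgeR called 3 members enriched and 5 depleted of 77 in UV, where 24.7% and 24.4% of all genes were called. In control it called 3 enriched and 3 depleted, where 24.6% and 25.8% of all genes were called. When IP and input of each sample were tied by a block term, 19 members were enriched and 31 depleted in UV (30.4% and 30.1% of all genes), and 15 were enriched and 36 depleted in control (30% and 31.1% of all genes). Of the enriched members 12 were shared by both conditions (63.2% of those in UV, 80% of those in control), and of the depleted ones 30 (96.8% of those in UV, 83.3% of those in control). The matching shares over all genes are not given here, so whether members share more calls than other genes cannot be told. Without the block, the median log2 IP over input was −0.10 over members in UV (−0.01 over all genes) and −0.23 in control (−0.04 over all genes).

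High sulfur KAPs held the strongest enrichment. Krtap3-2, a KAP of the shaft cortex, had log2 IP over input of 1.47, 1.70 and 1.97 in UV samples 1 to 3 and 1.18, 1.47 and 1.14 in control samples. It was called in UV (1.80, SE 0.51, adjusted p = 0.0106) and in control (adjusted p = 0.0429), and UV 1 and Control 2 touched at 1.47. Krtap24-1 had 1.48, 1.08 and 1.21 in UV samples and 0.86, 1.54 and 1.30 in control samples, and was called in both (adjusted p = 0.0478 in UV and 0.0283 in control). Krtap1-4 was called in UV (1.11, SE 0.42, adjusted p = 0.0452) and Krtap10-4 in control (adjusted p = 0.0353). With the sample block, 8 of 17 high sulfur KAPs were enriched in each condition, 1 was depleted in UV and 3 in control.

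Glycine-tyrosine KAPs stood at the other end. Krtap6-1 had −1.94, −2.60 and −2.43 in UV samples and −2.99, −1.76 and −2.18 in control samples (adjusted p = 0.0144 in UV and 0.0317 in control). Krtap6-2 had −2.34, −2.46 and −2.15 in UV samples and −2.48, −1.44 and −1.76 in control samples, and Krtap6-5 had −1.98, −2.33 and −2.23 in UV samples and −2.54, −1.27 and −1.69 in control samples. Both were called in UV (adjusted p = 0.0186 and 0.0216) and missed the threshold in control (0.0582 and 0.0739). Krtap22-2 was called depleted in both conditions (adjusted p = 0.0466 in UV and 0.0348 in control), as was Krtap28-13 of no assigned class (0.0284 in UV and 0.0115 in control). With the sample block, 11 of 15 glycine-tyrosine KAPs were depleted in each condition, and Krtap7-1 was enriched in both (0.89 in UV and 0.53 in control).

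Shaft keratins lay below the average gene. Krt34 had −1.08, −1.17 and −1.19 in UV samples and −1.01, −0.94 and −0.81 in control samples. Krt33b had −0.99, −0.94 and −1.03 in UV samples and −0.81, −1.07 and −1.001 in control samples. With the sample block 8 of 9 type I and 4 of 5 type II shaft keratins were called depleted in each condition, and without it none was. Krt75 was depleted by the block fit as well (−0.60 in UV and −0.67 in control). Depleted here means below the average gene, not free of m6A. Krt31, Krt33a, Krt34 and Krt75 were depleted by the block fit and also had deposited peaks. Sheath keratins lay on both sides of the average gene, from −0.58 for Krt27 to 0.31 for Krt26 in UV and from −0.40 to 0.49 for the same genes in control. With the block, 3 of 4 type I sheath keratins were depleted and 1 enriched in UV, and 2 depleted and 1 enriched in control. Of the 4 type II sheath keratins, 1 was enriched and 0 depleted in UV, and 2 enriched and 1 depleted in control. In UV, Krt27 lay below the shaft keratin Krt31 (−0.53). In the block fit, ultra-high sulfur KAPs had a median of 0.48 in UV, with 7 of 16 enriched and 1 depleted, and of −0.01 in control, with 3 enriched and 3 depleted.

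**Figure D4:**
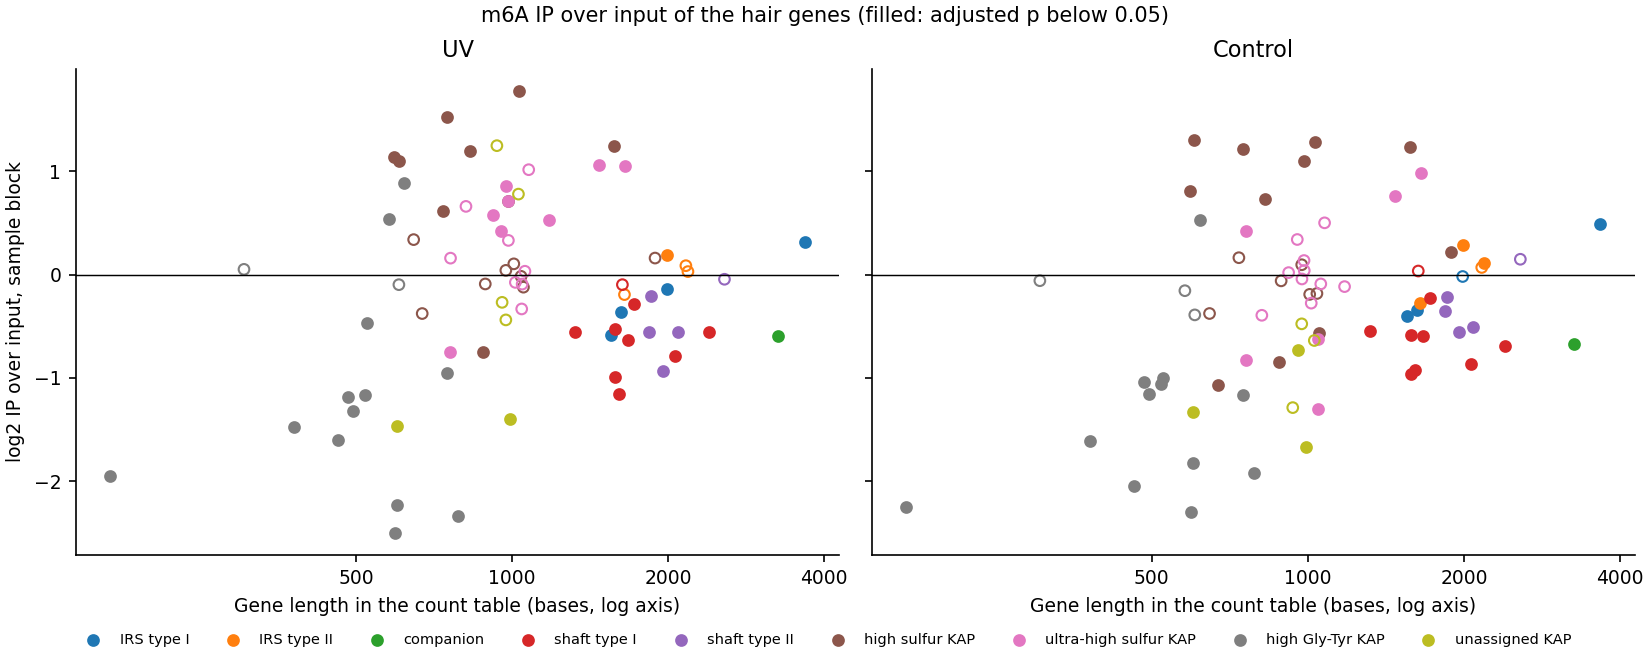
Log2 IP over input from the fit with the sample block (vertical axis) against gene length in bases (horizontal log axis) for the 77 tested members, UV left of control, coloured by role and filled where the adjusted p is below 0.05. The lowest points are short glycine-tyrosine KAPs (Krtap6-1 with −2.50 in UV and −2.30 in control) and the highest are high sulfur KAPs (Krtap3-2 with 1.77 in UV, Krtap3-1 with 1.30 in control).

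Gene length moved with enrichment, and its part in the class differences was not tested. In genes up to 750 bases the median was −0.37 in UV and −0.55 in control over 4208 genes, and −0.47 and −0.85 over 21 members. In genes over 750 and up to 1500 bases, medians were −0.03 and −0.13 over 3268 genes, and 0.10 and −0.03 over 31 members. Above 1500 bases, where most keratins lie, they were 0.05 in both conditions over 17546 genes, and −0.29 and −0.25 over 25 members.

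A change of enrichment between UV and control was called for 0 of 77 members in either direction (edgeR), where 0.012% of all genes were called higher and 0% lower. At an unadjusted p below 0.05 the count was 0 as well (2.79% and 1.64% of all genes), and DESeq2 called 0. Values of the samples did not overlap for 6 members higher in UV (Krtap2-4, Krtap3-3, Krtap5-5, Krtap8-1, Krtap15, Krtap31-2) and for 6 lower in UV (Krt26, Krt27, Krt34, Krt39, Krt83, Krt86), 7.79% each, against 8.09% and 9.1% of all genes.

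With the sample block, 1 member was called higher and 1 lower (0.843% and 0.751% of all genes). Krt86 had −1.06, −0.86 and −0.91 in UV samples and −0.49, −0.52 and −0.67 in control samples. Every UV value lay below every control value, and its change was −0.38 (SE 0.07, adjusted p = 0.00485). The change of Krtap3-2 was 0.50 (SE 0.13, adjusted p = 0.0497). Over the settings run, adjusted p ranged from 0.00485 to 1.00 for Krt86 and from 0.0497 to 1.00 for Krtap3-2, and the block was the setting that called them. Krt34 (−0.23, adjusted p = 0.119) and Krtap8-1 (0.69, adjusted p = 0.0563) missed the threshold with the block.

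**Figure D5:**
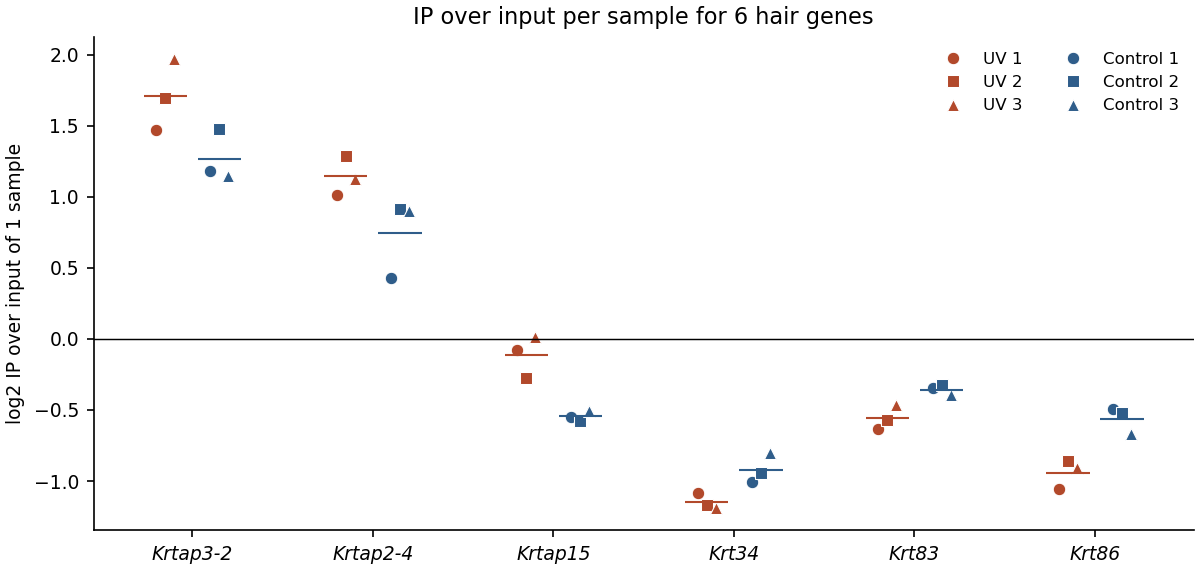
Log2 IP over input by sample for Krtap3-2, Krtap2-4, Krtap15, Krt34, Krt83 and Krt86, UV left of control. The 3 UV points of Krt86 (−1.06 to −0.86) lie below its control points (−0.67 to −0.49).

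The deposited peak table held 39 peaks of 24 members, 22 called in the UV arm and 17 in the control arm. Of the 24 members, 20 had a peak in the UV arm, 16 in the control arm and 12 in both. Among tested genes 31.2% of members had a peak, against 48.7% of all genes. A change of peak enrichment was called for 0 of 38 tested member peaks (edgeR), as for 0% of all peaks in either direction, and DESeq2 called 0. At an unadjusted p below 0.05, 4 were higher in UV and 0 lower (4.89% and 3.43% of all peaks). Of these 4, 2 are 1 site of Krt73 with the same reads, given once for each arm. With the sample block 2 were called higher and 0 lower (0.409% and 0.85% of all peaks), and both are the same site of Krt73, given once for each arm.

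The Krt73 site is at the 3′ end of the gene, on the minus strand (chromosome 15, 101793308 to 101793456, GRCm38). Its log2 IP over input, scaled with the gene-level factors, was 0.75, 0.61 and 0.69 in UV samples and 0.15, 0.12 and 0.27 in control samples. The conditions did not overlap, and the change was 0.47 (SE 0.16, unadjusted p = 0.00925, adjusted p = 0.531). A second Krt73 peak 5′ of it (101793901 to 101793990) had 0.59, 0.80 and 0.65 in UV samples and 0.59, 0.80 and 0.70 in control samples, which overlapped. For the Krt73 3′ site the authors' deposited table gives a log2 change of 0.49 with a p of 0.0941 and an FDR of 0.999.

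The other peaks with a low unadjusted p were in Krt31 and Krt28. A peak at the 5′ end of Krt31 (chromosome 11, 100050462 to 100050551) had 2.73, 0.61 and 1.48 in UV samples and −0.08, 0.47 and 0.13 in control samples (change 1.27, SE 0.45, unadjusted p = 0.0117, adjusted p = 0.541). It lies over the transcribed end of the Krt31 window printed above and held 12, 70 and 52 reads in UV inputs and 114, 38 and 70 in control inputs. A peak at the 3′ end of Krt28 (chromosome 11, 99364872 to 99364931) had 1.29, 1.28 and 1.42 in UV samples and 0.70, 0.58 and 0.78 in control samples (change 0.64, SE 0.29, unadjusted p = 0.0413, adjusted p = 0.587). No sample overlapped between the conditions at either peak. The authors' deposited log2 change was 1.32 for the Krt31 peak (p of 0.00442, FDR of 0.451) and 0.67 for the Krt28 peak (p of 0.0572, FDR of 0.936). For the Krtap3-1 peak it was −0.33 (p of 0.0327, FDR of 0.831), where the edgeR fit here gave −0.27 (unadjusted p = 0.704).

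Peak and gene counts disagreed for some members. In 8 of 39 member peaks (20.5%) the peak held more reads than its whole gene in the gene table, against 2.24% of all peaks. The peak of Krtap3-3 held 295% of the gene's reads over the 12 libraries, those of Krtap3-2 117% and 104%, and that of Krtap3-1 104%. Krtap3-2 and Krtap3-3 are close relatives, and their peaks had 2953 and 2792 reads in the library UV 2 IP. Krt84 peaks held 109% and 112% and a Krtap5-3 peak 136%. The Krt84 peak with 109% held 150, 427 and 583 reads in UV inputs and 632, 411 and 472 in control inputs, not scaled to library size. Unlike the gene counts of Krt84, these reads were not higher in UV. How reads that match several copies were counted is not given in the sources used here.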

How the data were processed

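The authors deposited raw read counts per gene and per peak for 12 libraries, and a peak table with a log2 fold change, a p-value and an FDR per peak, per the file headers. Alignment with STAR 2.5.3a to GRCm38 is stated in the submitters' processing notes. The read counter, the annotation, the use of strand, the treatment of reads with several matches and the peak caller are unstated in the labels and files. Of the gene counts of a library, 79.5% to 83.6% were even numbers. Zero is an even number too, and member counts include odd ones, such as 151 in UV input 2 and 277 in control input 1 for Krtap10-4. The share does not show how reads were counted. Peak starts count from 0 in the deposited table and are printed from 1.

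CPM values were computed by scaling each library with its TMM factor. The edgeR quasi-likelihood test (edgeR 4.0.16, limma 3.58.1, R 4.3.3) was run on the deposited counts after filterByExpr, with Benjamini-Hochberg adjustment over all genes or peaks tested and a call at an adjusted p below 0.05: 24099 genes for expression (3 UV against 3 control inputs), 22789 for IP abundance and 25022 for enrichment over the 12 libraries, and 41273 of 42989 peaks. A change of enrichment is the interaction of IP and UV. IP over input of a single sample used CPM plus a pseudocount of 0.1. IP and input of a sample carry the same sample label, and each IP deviated together with its own input (r = 0.404 to 0.634 over 25022 genes), so the fit with the sample as a block is given beside the enrichment results. DESeq2 1.42.0, library sizes without TMM, no filter, factors without the members, sums by Krtap subfamily and leaving out each sample were alternatives. In simulated counts the expression test recovered 51.5% of genes changed by 1 log2 unit and 88.9% of those changed by 2, among 23655 genes. The changed genes were drawn from all tested genes, so these shares do not carry over to the members, which varied more between replicates.

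Members and gene lists were chosen with earlier results of these data known. Named members are up to 4 per role with the highest mean CPM over the 6 inputs, called members (up to 10 per comparison and direction) and up to 10 members with a peak by mean count, and other lists name up to 4 genes with the smallest p. Further members are named where a count or a range singles them out, after their values were seen. KAP classes follow family numbers, since no protein sequences were used here. The precision is limited by 3 samples per group.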

Additional observations from a re-analysis of the deposited data

How the results depend on the processing

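Counts of called members moved with the settings as follows (higher in UV or enriched, then lower or depleted), with the share of all genes called under the same setting in parentheses. With library size only, expression called 2 lower (4.23%), enrichment in UV 1 enriched (18.3%), and enrichment in control 0 enriched and 9 depleted (15.4% and 35.3%). With DESeq2, expression called 2 higher and 7 lower (5.57% and 5.22%), IP abundance 2 lower (2.97%), and enrichment in control 1 enriched and 5 depleted (25.1% and 26%). With no low-count filter, expression called 3 higher and 9 lower (2.99% and 2.83%), IP abundance 2 higher and 6 lower (2.03% and 1.93%), enrichment in UV 8 enriched and 8 depleted (15.3% and 14.8%), and enrichment in control 8 enriched and 7 depleted (15.4% and 15.7%). With the replicate block, IP abundance called 0 higher (0.641%), enrichment in UV 19 enriched and 31 depleted (30.4% and 30.1%), enrichment in control 15 enriched and 36 depleted (30% and 31.1%), the change of enrichment 1 higher and 1 lower (0.843% and 0.751%), and the change of peak enrichment 2 higher (0.409% of all peaks). UV and control samples share only a number (r = −0.0671, 0.0539 and −0.165 for the same-numbered inputs), and expression with the replicate block called 0 members (1.53% and 1.43%). With sums by Krtap subfamily, enrichment in UV called 1 enriched and 2 depleted (24.7% and 24.4%). With the sheath covariate, added after seeing the data, expression called 23 higher and 1 lower at an equal sheath sum (1.11% and 1.09%). Without UV 1 and Control 3 together and with no covariate, expression called 1 higher and 5 lower (0.696% and 0.528%).

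With 1 sample left out, the counts were 0 to 1 higher and 0 to 8 lower for expression, 0 to 2 higher and 0 to 2 lower for IP abundance, 0 to 5 enriched and 0 to 8 depleted for enrichment in UV, 0 to 8 enriched and 0 to 8 depleted for enrichment in control, 0 for both changes of enrichment, and 0 to 22 higher and 0 to 1 lower for expression with the covariate. The cause was not tested.

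Some log2 values turned their sign. With library size only these were Krtap21-1 for expression (−0.12), Krtap17-1 (−0.000433), Krt71 (−0.13) and Krt73 (−0.074) for enrichment in UV, and Krt71 (−0.14), Krt73 (−0.19), Krt72 (−0.000376), Krtap3-3 (−0.10) and Krt84 (−0.0762) for enrichment in control. For expression, Krt33b had 0.0106 with no filter, and Krtap21-1 had −0.0537 with the replicate block. With the covariate, expression turned to 0.35 for Krtap3-2, 0.0378 for Krt27, 0.14 for Krt26, 0.41 for Krt31, 0.86 for Krt33b, 0.62 for Krt33a, 0.59 for Krtap4-1, 0.80 for Krt81, 0.83 for Krt83, 0.00557 for Krt71, 0.12 for Krt72, 1.11 for Krtap6-1, 0.0609 for Krtap10-4 and 0.55 for Krtap3-3. Krt26, Krt27, Krt71 and Krt72 are themselves summed into the covariate, so their move towards 0 in that fit was built in. In the main fit Krt26 had −0.57 and Krt27 −0.53, which are not near 0. Without UV 1 and Control 3, Krt33b had 0.0632, Krt81 0.00561 and Krtap6-1 0.0035. With 1 sample left out, expression ranged from −0.35 to 0.40 for Krt33b, −0.60 to 0.16 for Krt33a, −0.52 to 0.22 for Krtap4-1, −0.44 to 0.34 for Krt81, −0.47 to 0.35 for Krt83, −0.41 to 0.56 for Krtap6-1, −0.83 to 0.0400 for Krtap3-3, −0.42 to 0.64 for Krtap21-1, −0.12 to 0.62 for Krtap3-1, −0.34 to 0.61 for Krtap1-5, −0.20 to 0.55 for Krt34, −0.19 to 0.71 for Krtap9-3, −0.0251 to 0.78 for Krt86 and −0.24 to 0.57 for Krtap22-2. Enrichment in control ranged from −0.49 to 0.26 for Krtap1-5, −0.49 to 0.0307 for Krtap4-1, −0.0677 to 0.0349 for Krt25, −0.0280 to 0.77 for Krtap4-16 and −1.44 to 0.33 for Krtap31-1.

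In simulated counts drawn from all tested genes, the expression test recovered 51.5% of changes of 1 log2 unit. Members varied more between replicates than all genes did (median highest over lowest 3.43 against 1.24 in UV inputs, 2.54 against 1.33 in control inputs). The recovery for members was not simulated. Scarce KAPs such as Krtap9-5 and Krtap31-1 rest on few reads, and these genes passed the filter only through UV libraries.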
